A study of Mus musculus with 5 samples.

Results

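Prdm1, Id2, Zeb2, Bhlhe40 and Nfil3 encode transcription factors of effector lymphocyte differentiation, and the called regions of 2 ChIP-seq lists around these 5 of 22350 protein-coding genes are described here. A region was taken when it shared at least 1 bp with a gene body widened by 50 kb on each side (GENCODE vM1 annotation, mouse build mm9), which kept 13 of 9135 Runx3-bound regions and 26 of 18992 H3K4me1-marked regions. All 5 libraries came from CD8-TC, the CD8+ T cells, taken from the spleens of ICR mice. The cells had received 2 days of TCR activation, followed by 4 days of growth in IL-2 at 100 u/ml. Anti-Runx3 antibody was used for 2 libraries, non-immune serum (NIS) as control for 2 libraries and anti-H3K4me1 antibody for 1 library in the labels. The protocol mentions 2 repeats for either antibody, so it is not known on how many libraries the H3K4me1 list rests. Reads of repeats had been joined before a single round of peak calling for either antibody, so that no value below has a replicate error and no difference was tested. Read depth was not analysed here, and the lists hold positions alone, without a peak height. No RNA was measured in these libraries, so the labelled cell type was not checked against marker transcripts. A region bound in some of the cells cannot be told apart in such lists from one bound in all of them.

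Runx3 is a RUNX family transcription factor that is needed for cytotoxic CD8-TC, and monomethylated lysine 4 of histone H3 (H3K4me1) is a chromatin mark abundant at enhancers. Prdm1 encodes Blimp-1, a zinc finger repressor of terminally differentiating effector lymphocytes and plasma cells. Id2 encodes an inhibitor that pairs with E proteins and keeps them from DNA. Zeb2 encodes a zinc finger and homeodomain repressor that acts downstream of T-bet in terminal effector CD8-TC. Bhlhe40 encodes a basic helix-loop-helix repressor of activated T cells. Nfil3 encodes E4BP4, a basic leucine zipper factor known for its need in NK cell development.

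The 5 genes differed widely in the number of Runx3-bound regions. Prdm1 had 7 Runx3-bound regions and 12 H3K4me1-marked regions in a window of 191.3 kb. Nfil3 had 3 and 4 regions of these lists in 113.9 kb, and Bhlhe40 had 2 and 6 regions in 106.3 kb. Zeb2 had 1 Runx3-bound and 3 H3K4me1-marked regions in 233.8 kb, which was the longest window with nearly the lowest number of regions. Id2 had 0 Runx3-bound regions and 1 H3K4me1-marked region in 102.3 kb. Thus 4 of the 5 genes had a Runx3-bound region, against 47.9% of all protein-coding genes with the same kind of window, and 5 of the 5 had an H3K4me1-marked region, against 52.3% of all.

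Relative to all protein-coding genes, Prdm1 stood near the top and Id2 at the bottom of the distribution of Runx3-bound regions. Over all genes the median was 0 and the mean 1.014 Runx3-bound regions per window, and 52.07% of genes had 0. Fewer regions than Prdm1 were found at 99.12% of genes, fewer than Nfil3 at 86.38%, fewer than Bhlhe40 at 73.8% and fewer than Zeb2 at 52.07%. Counted per kb of window, the shares of genes below these 4 genes were 96.82%, 91.98%, 85.7% and 53.57%. The order of the 4 genes was the same by either measure.

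H3K4me1 covered 14.81% of the Prdm1 window and 13.03% of the Nfil3 window, more than at 97.23% and 96.09% of genes. The cover was 7.041% at Bhlhe40, 1.481% at Zeb2 and 1.108% at Id2, more than at 88.08%, 60.33% and 55.79% of genes. The median gene had 0.656% of its window covered. Prdm1 and Nfil3 were close in percent cover, but the marked length was 28330 bp in the 191.3 kb window of Prdm1 and 14833 bp in the 113.9 kb window of Nfil3. Of the 4 marked regions in the Nfil3 window, 3 were between 4212 and 4559 bp wide. The region of 4212 bp was centred 0.907 kb from a start of the neighbouring gene Auh and counts toward the Nfil3 cover.

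**Figure D1:**
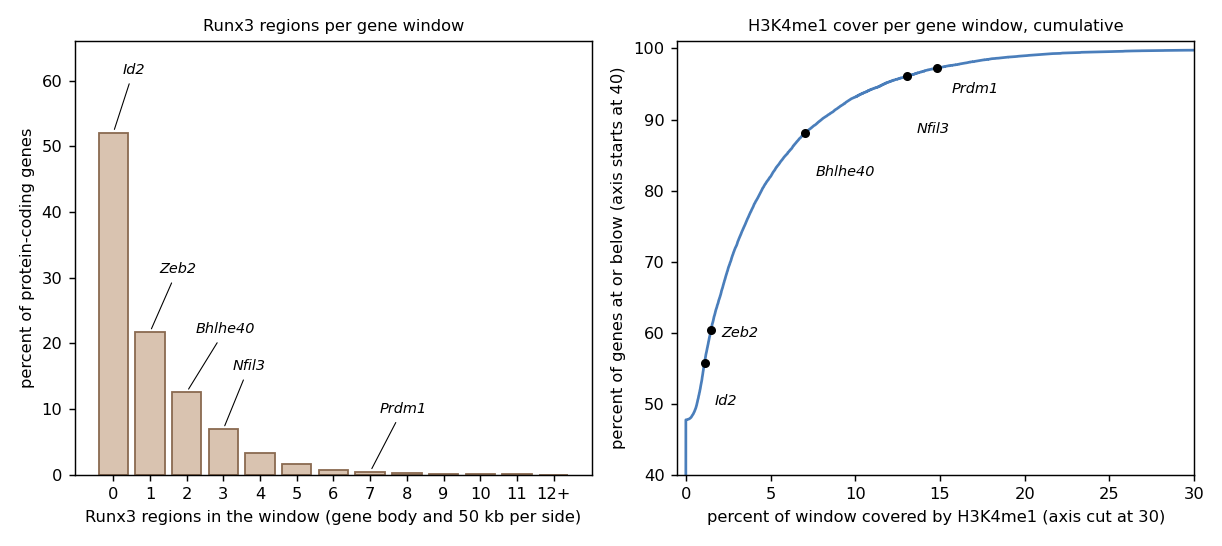
Left, bars give the percent of 22350 protein-coding genes with each number of Runx3-bound regions in the gene body and 50 kb per side, and the 5 genes are named at their own number, from 0 at Id2 to 7 at Prdm1. Right, the line gives the cumulative percent of genes by the percent of the window covered by H3K4me1, with the 5 genes as points, on axes that do not start at 0 on the vertical scale and leave out the most covered windows.

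The positions of the regions around each gene are shown in the map of the 5 windows. In the following, distances run from the centre of a region to the start of the protein-coding transcript that begins farthest upstream, and are negative upstream. Regions of each list are numbered along the direction of transcription.

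**Figure D2:**
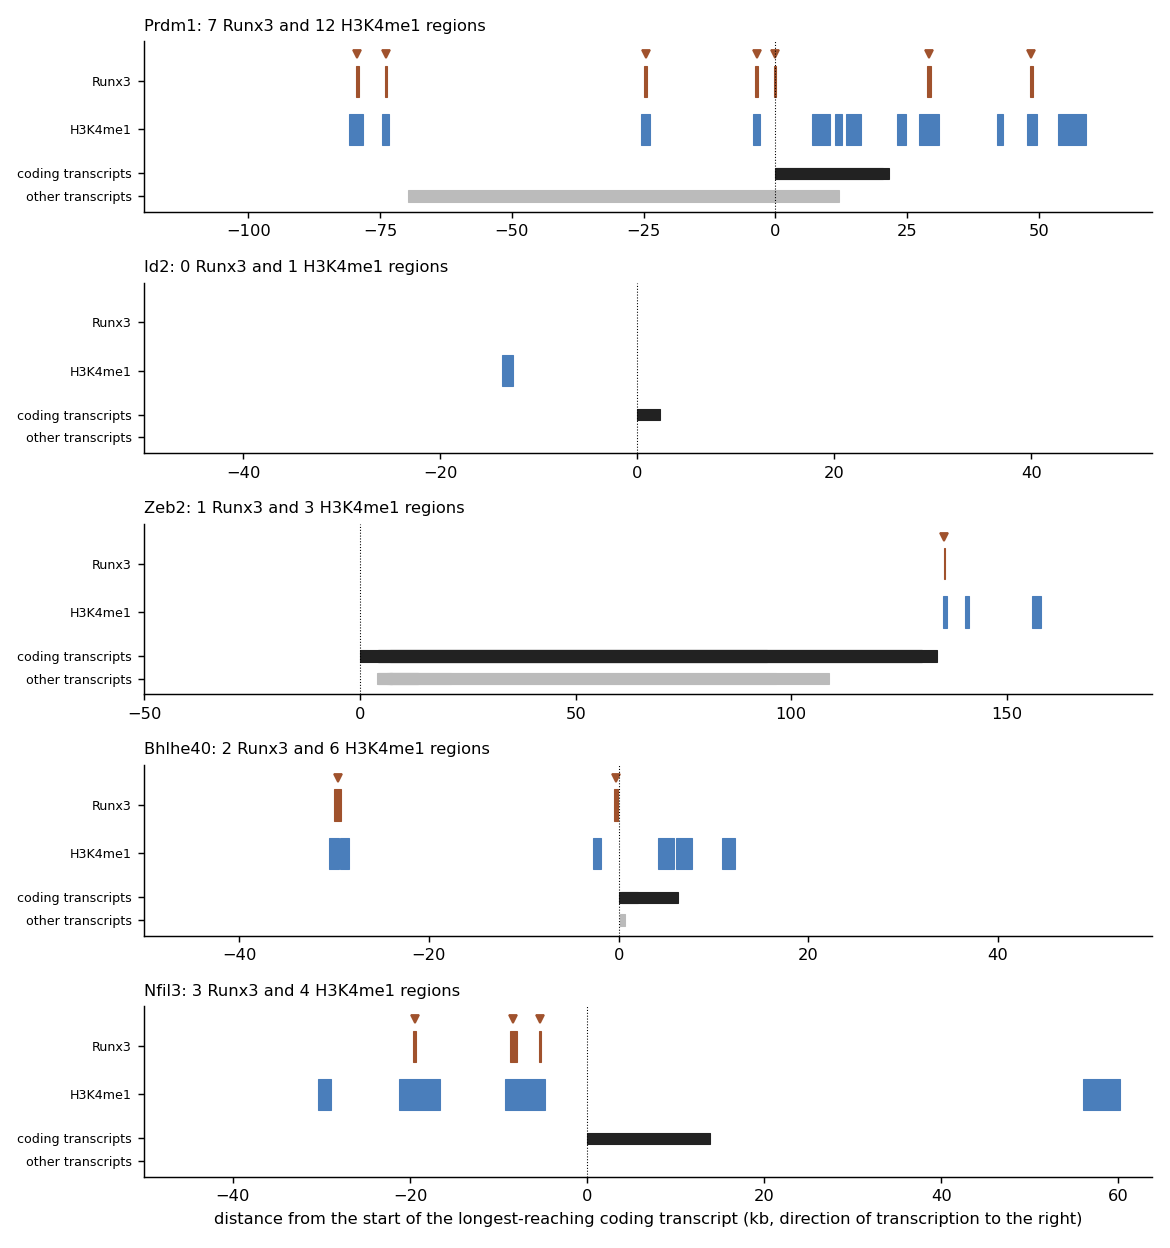
Maps of the 5 windows, each with its own horizontal scale in kb from the coding start, with transcription to the right. Brown bars with arrowheads are Runx3-bound regions, blue bars H3K4me1-marked regions, black bars protein-coding transcripts and grey bars other transcripts of the gene, and a dotted line marks the coding start. Runx3-bound regions lie on both sides of Prdm1, upstream of Bhlhe40 and Nfil3, downstream of Zeb2 and nowhere in the Id2 window.

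Prdm1 lies on the minus strand of chromosome 10 at chr10:44156983-44248307. This gene body of 91.33 kb includes a noncoding transcript that starts at 44248307, far upstream of the protein-coding transcripts, which start at 44178554 and 44178493. Of its 7 Runx3-bound regions, 5 lay at or upstream of the coding start and 2 lay past the end of the gene. With the protein-coding transcripts alone as the gene body, 5 regions remained, because the outermost 2 upstream regions entered through the noncoding transcript.

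Prdm1 region 5 (chr10:44178340-44178865, 526 bp) covered both coding starts. It was not marked by H3K4me1, and the nearest marked region was 2640 bp away. Its sequence was rich in G and C (64.45%), with 46 CpG dinucleotides. The region held 2 matches to the RUNX motif, which was searched on both strands. Its variants were TGTGGT and also TGTGGC, with thymine as the third base, and TGCGGT and also TGCGGC, with cytosine there. Both matches were TGCGGC, centred at -14 bp and -81 bp from the coding start and separated by 61 bp. The 300 bases directly upstream of the start that hold them are shown in mm9 at chr10:44178555-44178854, minus strand, 5′ to 3′, with RUNX matches in capitals, because this was the only Runx3-bound region over a transcript start of the 5 genes.

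Prdm1 region 5: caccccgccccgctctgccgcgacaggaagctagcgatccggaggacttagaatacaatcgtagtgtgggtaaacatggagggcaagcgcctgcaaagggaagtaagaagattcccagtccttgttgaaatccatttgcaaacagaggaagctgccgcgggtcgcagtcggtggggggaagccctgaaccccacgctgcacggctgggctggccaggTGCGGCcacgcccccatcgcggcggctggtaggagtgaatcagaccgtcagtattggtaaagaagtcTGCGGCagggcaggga

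The nearest neighbour, Prdm1 region 4 (chr10:44181855-44182364, 510 bp), was centred 3.507 kb from region 5, at -3.556 kb in an intron of the noncoding transcript. It lay within an H3K4me1-marked region of 1343 bp. It held 1 match to TGTGGT, 1 match to TGTGGC and 1 match to TGCGGC and was the only region outside the starts with a TGCGGC match. Prdm1 region 3 (chr10:44202952-44203408, 457 bp) at -24.63 kb also lay in intronic sequence of the noncoding transcript. It was within a marked region of 1610 bp and held TGTGGT and TGTGGC 73 bp apart.

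The remaining upstream regions of Prdm1 flanked the start of the noncoding transcript from outside. Region 2 (chr10:44252211-44252669, 459 bp) was centred 4.133 kb upstream of that start and -73.89 kb from the coding start, and region 1 (chr10:44257629-44258175, 547 bp) 5.462 kb farther out at -79.35 kb. Both were intergenic, lay wholly within marked regions of 1370 and 2566 bp and held 2 TGTGGT matches each. Region 1 was also the only one of the 13 with an AP-1 motif (TGACTCA or its complement TGAGTCA), against 13.5% of all Runx3-bound regions.

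Downstream of Prdm1, region 6 (chr10:44148925-44149797) was the widest of the 13 with 873 bp. It lay 7.186 kb past the end of the gene, at 29.19 kb, inside a marked region of 3794 bp, and held 2 TGTGGT and 1 TGTGGC match. Region 7 (chr10:44129639-44130281, 643 bp) lay 26.7 kb past the end inside a marked region of 1897 bp and held 1 TGTGGC match. The 300 bases around the centre of region 6 are printed as the sequence of the widest region, with all 3 of its RUNX matches (chr10:44149211-44149510, minus strand, 5′ to 3′, matches on either strand in capitals).

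Prdm1 region 6: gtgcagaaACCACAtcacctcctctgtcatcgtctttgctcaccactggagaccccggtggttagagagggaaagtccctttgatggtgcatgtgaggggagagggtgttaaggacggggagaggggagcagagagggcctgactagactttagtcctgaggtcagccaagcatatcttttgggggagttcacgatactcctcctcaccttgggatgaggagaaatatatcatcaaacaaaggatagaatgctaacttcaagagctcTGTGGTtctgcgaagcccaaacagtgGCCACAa

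A further 6 H3K4me1-marked regions of the Prdm1 window held no Runx3-bound region. Among them were 3 that lay within the protein-coding transcripts, centred between 8.684 and 14.82 kb downstream of the coding start, with widths of 3479, 1503 and 2835 bp. The widest H3K4me1-marked region at the 5 genes (chr10:44119556-44124815, 5260 bp) was also one of these. It was centred 56.37 kb downstream of the coding start and contained 14 RUNX motif matches.

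Bhlhe40 lies on the plus strand of chromosome 6 at chr6:108610623-108616919. Its 2 Runx3-bound regions differed in position, mark and motif. Bhlhe40 region 2 (chr6:108610104-108610542, 439 bp) ended 0.081 kb before the coding start, in an intron of the noncoding gene 0610040F04Rik. It was not marked by H3K4me1, the nearest marked region being 1287 bp away, and it had the highest G and C content of the 13 regions (66.74%), with 27 CpG dinucleotides. Its 2 RUNX matches were both TGCGGC, as at the Prdm1 start, and followed each other directly with a gap of 0 bp, centred at -331 bp and -325 bp from the start. The region also held 1 CACGTG, the E-box variant that the Bhlhe40 protein binds, and such a match was present in 11% of all Runx3-bound regions. The central 300 bases are shown for these adjacent matches (chr6:108610173-108610472, plus strand, 5′ to 3′, RUNX matches on either strand in capitals).

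Bhlhe40 region 2: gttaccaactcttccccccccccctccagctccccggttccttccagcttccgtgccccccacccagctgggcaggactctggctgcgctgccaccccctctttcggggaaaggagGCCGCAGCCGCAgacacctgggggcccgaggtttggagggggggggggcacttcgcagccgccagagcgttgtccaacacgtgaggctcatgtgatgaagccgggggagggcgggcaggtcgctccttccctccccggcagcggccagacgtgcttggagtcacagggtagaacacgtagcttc

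Bhlhe40 region 1 (chr6:108580604-108581386, 783 bp) lay at -29.63 kb in another intron position of 0610040F04Rik. It overlapped 2 H3K4me1-marked regions of 1065 and 941 bp, which together covered 78.8% of it (617 bp), and was the only marked region of the 13 that was not covered fully. It held 3 TGTGGC and 1 TGTGGT match, all within the marked part, and 6 ETS motifs. The ETS motif was searched on either strand as AGGAAA or the variant AGGAAG, and as CGGAAA or the variant CGGAAG. The central 300 bases, with 2 of its 4 RUNX matches, are given for comparison with the region at the start (chr6:108580845-108581144, plus strand, 5′ to 3′, RUNX matches in capitals).

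Bhlhe40 region 1: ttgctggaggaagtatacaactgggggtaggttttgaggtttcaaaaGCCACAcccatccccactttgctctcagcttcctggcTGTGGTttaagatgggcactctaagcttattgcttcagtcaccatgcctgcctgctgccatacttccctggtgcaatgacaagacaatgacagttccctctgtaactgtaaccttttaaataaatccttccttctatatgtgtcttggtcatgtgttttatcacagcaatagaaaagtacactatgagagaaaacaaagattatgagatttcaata

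The other H3K4me1-marked regions of Bhlhe40 held no Runx3-bound region and surrounded the start on both sides. A region of 920 bp was centred at -2.266 kb from the start, over an exon of the noncoding gene Gm17055. Regions of 1650 and 1611 bp lay over the coding and untranslated 3′ part of Bhlhe40, at 5.008 and 6.904 kb, and a region of 1297 bp lay at 11.58 kb.

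Nfil3 lies on the minus strand of chromosome 13 at chr13:53062578-53076442, and all 3 of its Runx3-bound regions were intergenic, upstream and wholly marked by H3K4me1. Regions 2 and 3 shared one H3K4me1-marked region of 4553 bp (chr13:53081149-53085701), centred 6.983 kb upstream of the start, the only marked region at the 5 genes that held more than 1 Runx3-bound region. Region 2 (chr13:53084413-53085145, 733 bp) at -8.337 kb held 4 TGTGGT matches, of which 1 pair was 3 bp apart, and 7 ETS motifs. It was also the only region with AGGTGTGA, a T-box core, which 3.92% of all Runx3-bound regions held. Region 3 (chr13:53081677-53081906) at -5.35 kb was the narrowest of the 13 with 230 bp and held 1 TGTGGT and 1 CACGTG.

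Region 1 of Nfil3 (chr13:53095712-53096141, 430 bp) at -19.48 kb held 1 TGTGGT match and lay inside a marked region of 4559 bp (chr13:53093089-53097647). Of the 32-base words of this Runx3-bound region 84.21% occurred once in the genome, the lowest share among the 13, and the other words occurred more often. The marked region farthest downstream in the Nfil3 window (chr13:53016200-53020411) was centred 0.907 kb from a start of Auh, the neighbouring gene. The central part of Nfil3 region 2 is printed since this region had the most TGTGGT matches, 3 of which are complete in it (chr13:53084629-53084928, minus strand, 5′ to 3′, RUNX matches in capitals).

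Nfil3 region 2: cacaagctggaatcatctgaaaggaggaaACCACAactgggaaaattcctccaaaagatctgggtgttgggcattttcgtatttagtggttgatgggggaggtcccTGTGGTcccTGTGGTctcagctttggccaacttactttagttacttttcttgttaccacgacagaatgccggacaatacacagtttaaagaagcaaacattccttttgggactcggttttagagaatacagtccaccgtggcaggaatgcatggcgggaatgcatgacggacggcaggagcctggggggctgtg

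Zeb2 lies on the minus strand of chromosome 2 at chr2:44839154-44972915. No Runx3-bound and no H3K4me1-marked region was called in its gene body of 133.76 kb or in the 50 kb upstream of it. All called regions were past the 3′ end. The Runx3-bound region (chr2:44837234-44837573, 340 bp) had its near edge 1.581 kb beyond the end of the gene and its centre 135.5 kb from the coding start, and the coding gene start nearest to it was that of Gtdc1, 54.23 kb away. It was wholly covered by an H3K4me1-marked region of 708 bp, the narrowest of the 26, and held 1 TGTGGT match and 2 ETS motifs. Marked regions of 786 and 1968 bp without a Runx3-bound region followed farther downstream. Beyond the window, the next Runx3-bound region upstream of the gene body was 1254 kb away and the next H3K4me1-marked region 3204 kb away. The central 300 bases of the Zeb2 region are shown because it was the only Runx3-bound region there (chr2:44837254-44837553, minus strand, 5′ to 3′, RUNX match in capitals, read from the opposite strand).

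Zeb2 region 1: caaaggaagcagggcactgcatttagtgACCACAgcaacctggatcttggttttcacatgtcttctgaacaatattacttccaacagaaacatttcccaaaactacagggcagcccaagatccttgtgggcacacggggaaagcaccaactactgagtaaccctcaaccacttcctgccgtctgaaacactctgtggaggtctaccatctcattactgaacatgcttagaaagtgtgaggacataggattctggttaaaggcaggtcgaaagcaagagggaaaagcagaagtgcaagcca

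Id2 lies on the minus strand of chromosome 12 at chr12:25778666-25780957. Its only called region was marked by H3K4me1 (chr12:25793574-25794706, 1133 bp), was centred 13.18 kb upstream of the start and held 2 RUNX matches. The nearest Runx3-bound region outside the window was upstream at -94.42 kb (chr12:25875211-25875541, 331 bp). It overlapped an H3K4me1-marked region, held 2 RUNX matches, and had Id2 as the nearest coding gene start. On the downstream side the nearest Runx3-bound region was 227.3 kb from the start, in an intron of Mboat2.

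RUNX matches were also counted over the whole windows. The Id2 window had 191 matches, against 319 at Prdm1, 319 at Zeb2, 208 at Nfil3 and 170 at Bhlhe40. Per kb these were 1.867 at Id2, 1.667 at Prdm1, 1.365 at Zeb2, 1.827 at Nfil3 and 1.599 at Bhlhe40. The genome outside assembly gaps had 1.482 per kb. Of the 32-base words in the windows 93.99% to 96.84% occurred once in the genome, with 95.34% at Id2, a measure that approximates where short reads align uniquely.

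At the limit of the windows, 1 Runx3-bound region lay just outside, 56.62 kb downstream of Nfil3 in an untranslated part of Auh. Inside the limit, the Runx3-bound regions nearest to it were Bhlhe40 region 1 and Prdm1 region 7, with edges 29.24 and 26.7 kb from the gene bodies, so that none lay close to it. For H3K4me1, the outermost region inside was that at Auh, 42.17 kb from Nfil3, and regions just outside lay 50.64 kb from Nfil3, 51.28 kb from Bhlhe40, 55.17 kb from Prdm1 and 67.12 kb from Id2.

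Runx3-bound regions of the 5 genes overlapped H3K4me1 in 11 of 13 cases (84.62%, 95% Wilson interval 57.77 to 95.67), against 57.3% of all Runx3-bound regions. The interval covers counting error only, and its lower limit lies just above the share of all regions. Regions are not replicates, and the difference was not tested. The 2 unmarked regions were those at the starts of Prdm1 and Bhlhe40. They were the only 2 of 13 under 1 kb from an annotated transcript start, against 26.3% of all Runx3-bound regions, and 9 of 13 were over 5 kb away (69.23%, interval 42.37 to 87.32), against 56.4%. Over the whole list, 20% of regions under 1 kb from a start and 70.6% of the others overlapped H3K4me1. The 11 regions of the 5 genes that were 1 kb or more from a start were all marked.

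Seen from H3K4me1, Runx3-bound regions were found in 11 of the 26 marked regions of the 5 genes (42.31%, interval 25.54 to 61.05) and in 29.2% of the whole list. By gene these were 6 of 12 at Prdm1, 2 of 6 at Bhlhe40, 2 of 4 at Nfil3, 1 of 3 at Zeb2 and 0 of 1 at Id2. The median width of the 26 regions was 1581.5 bp, against 1592 bp over the list. Marked regions with Runx3 had a median of 1610 bp and those without 1553 bp, and over the list 1903.5 and 1496 bp. By gene, the 3 Zeb2 regions were between 708 and 1968 bp wide and the 6 Bhlhe40 regions between 920 and 1650 bp. These widths were below those of the 3 wide regions of the Nfil3 window (4212 to 4559 bp), of which the narrowest was that at Auh.

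**Figure D3:**
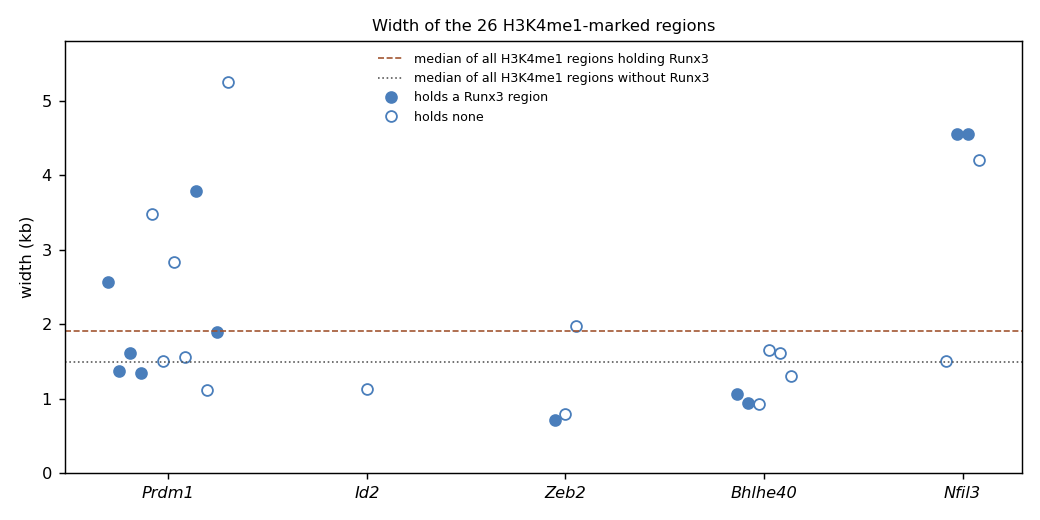
Each point is one of the 26 H3K4me1-marked regions, placed by gene and by width in kb on the vertical axis, filled where it holds a Runx3-bound region. The dashed and dotted lines are the medians of all marked regions with (1903.5 bp) and without (1496 bp) Runx3. Filled and open points mix in width within Prdm1 and Bhlhe40. At Nfil3 the filled points lie above the open ones, and at Zeb2 the filled point lies below them.

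A RUNX motif was present in 13 of 13 Runx3-bound regions, against 92.6% of all. In the central 200 bp it was present in 10 of 13, against 78.8%. By variant, TGTGGT was present in 10 of 13 regions (69.6% of all), TGTGGC in 5 of 13 (45.7%), TGCGGC in 3 of 13 (16.3%) and TGCGGT in 0 of 13 (20.8%). There were 3 or more matches in 4 of 13 regions, against 38.1%. With 13 regions, 0 of 13 allows a share of up to 22.81% (upper Wilson limit), which includes that of TGCGGT in the whole list.

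TGTGGT or TGTGGC was present in 11 of 13 regions, against 83% of all, and the 2 regions without it were those at the Prdm1 and Bhlhe40 starts, which held TGCGGC alone. The TGCGGC match of Prdm1 region 4 stood beside matches of the other variants. In the whole list, regions under 1 kb from a start held a TGCGGT or TGCGGC match in 59.1% of cases and regions farther away in 21.6%. TGTGGT or TGTGGC was present in 65.6% of the former and 89.2% of the latter, so that most regions near starts in the list held these variants, unlike the 2 described here. Median G and C content was 65.6% in these 2 regions and 47.8% in the other 11, against 58.5% and 47.5% in the whole list.

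**Figure D4:**
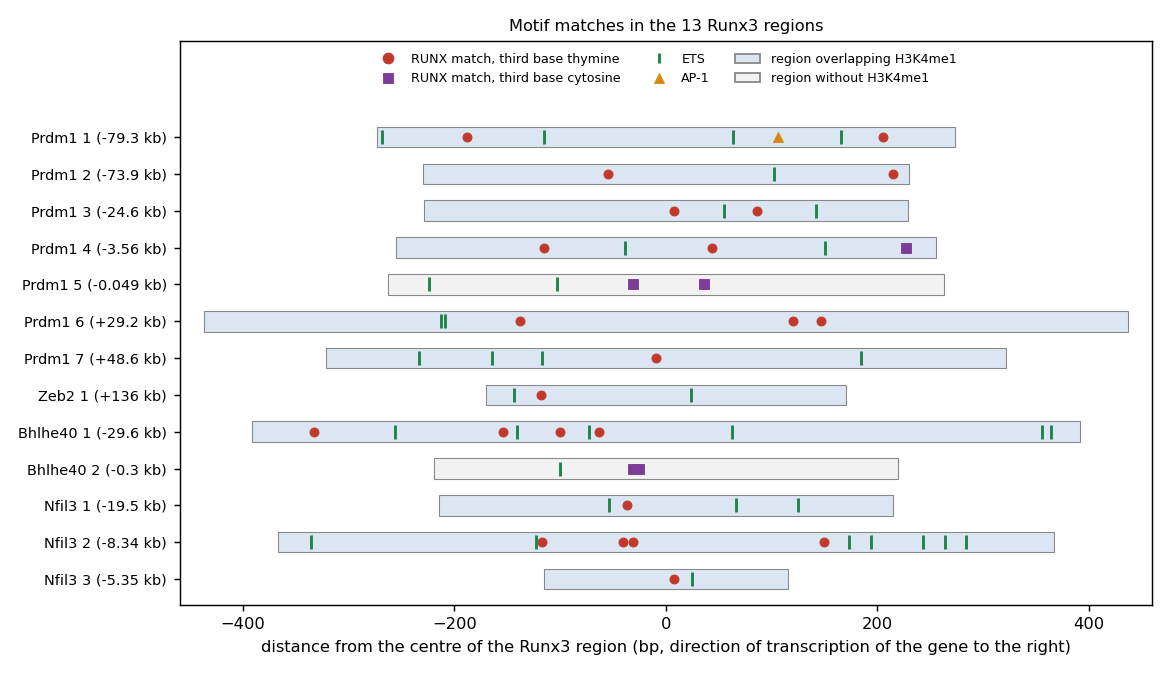
Each bar is one of the 13 Runx3-bound regions, drawn to scale in bp from its centre with transcription of its gene to the right, blue where it overlaps H3K4me1 and grey where it does not. Red circles are RUNX matches with thymine as the third base and purple squares those with cytosine, green ticks are ETS motifs and the orange triangle is the AP-1 motif. Purple squares alone are found in the 2 grey bars, at the starts of Prdm1 and Bhlhe40.

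Motifs of other factors were also counted in the 13 regions. ETS motifs were found in 13 of 13, against 88.9% of all. An ETS and a RUNX motif at most 50 bp apart in the central 200 bp were found in 4 of 13 (39% of all), a RUNX pair in 2 of 13 (25.7%) and an AP-1 and RUNX pair in 0 of 13 (3.44%). The share with an ETS and a RUNX motif, 30.77%, was 53.85% when whole regions were searched and 23.08% with a gap of at most 20 bp. The 39% of all Runx3-bound regions belongs to the first setting alone. It cannot be set against the other settings, for which no share of the whole list is given here. Motifs that the proteins of the 5 genes themselves are known to bind were looked for as well. CACGTG was present in 2 of 13 regions, one at the Bhlhe40 start and one upstream of Nfil3. CACCTG, an E-box that Zeb2 binds, was present in 5 of 13 (35.6% of all), with 3 of these at Prdm1. TTATGTAA or TTACGTAA, the sites of Nfil3, was present in 0 of 13 (1.59%). A match or its absence says only whether these letters occur in the called region.

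Genes related to the 5 by family or role were counted in the same way. Of these, 23 of 28 had a Runx3-bound region, beside 4 of the 5 genes and 47.9% of all protein-coding genes. Their windows held 179 marked regions and 80 Runx3-bound regions. H3K4me1 overlapped 52 of these 80, against 57.3% of all Runx3-bound regions. Among other Id genes, Id3 had 5 Runx3-bound regions, all of which were marked, Id1 had 1 and Id4 had 0, so that Id2 and Id4 were the Id genes without any. Of the E proteins that Id proteins inhibit, Tcf3 had 3, Tcf12 had 2 and Tcf4 had 0. Zeb1, the paralog of Zeb2, had 1 Runx3-bound region as did Zeb2, and Bhlhe41, the paralog of Bhlhe40, had 0 with 5 marked regions. Dbp, Tef and Hlf, whose proteins share binding sites with Nfil3, had 2, 3 and 0.

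No other gene of the PRDM family that was counted reached the 7 regions of Prdm1. Prdm10 had 4, Prdm2 and Prdm4 had 2, Prdm14 and Prdm16 had 1 and Prdm9 had 0. Bach2, which encodes a repressor of Prdm1, had 12 Runx3-bound regions and 33 marked regions in a long window of 447.3 kb, or 2.683 Runx3-bound regions per 100 kb against 3.659 at Prdm1, and Bcl6, which encodes another repressor opposed to Blimp-1, had 1 of each.

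The other regulators of effector CD8-TC that were counted had fewer Runx3-bound regions than Prdm1, and some regulators of naive and memory CD8-TC had more. The 7 regions of Prdm1 depend on its noncoding transcript. With protein-coding transcripts alone Prdm1 had 5, and such counts are not given here for the other genes. Runx3-bound regions numbered 5 at Runx3 itself, 4 at Tbx21 (T-bet), 2 at Eomes, 2 at Batf and 1 at Irf4, and H3K4me1 covered 23.89% of the Irf4 window and none of that of Eomes. The 4 regulators of naive and memory cells all had Runx3-bound regions, 9 at Lef1, 8 at Klf2, 6 at Tcf7 and 3 at Foxo1. Per 100 kb of window the values were 7.795 at Klf2, 4.587 at Tcf7, 4.208 at Lef1 and 1.65 at Foxo1. They were 3.411 at Tbx21, 3.178 at Runx3, 1.853 at Eomes, 1.634 at Batf and 0.8496 at Irf4. Beside these stood 3.659 at Prdm1, 2.635 at Nfil3, 1.882 at Bhlhe40 and 0.4278 at Zeb2.

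**Figure D5:**
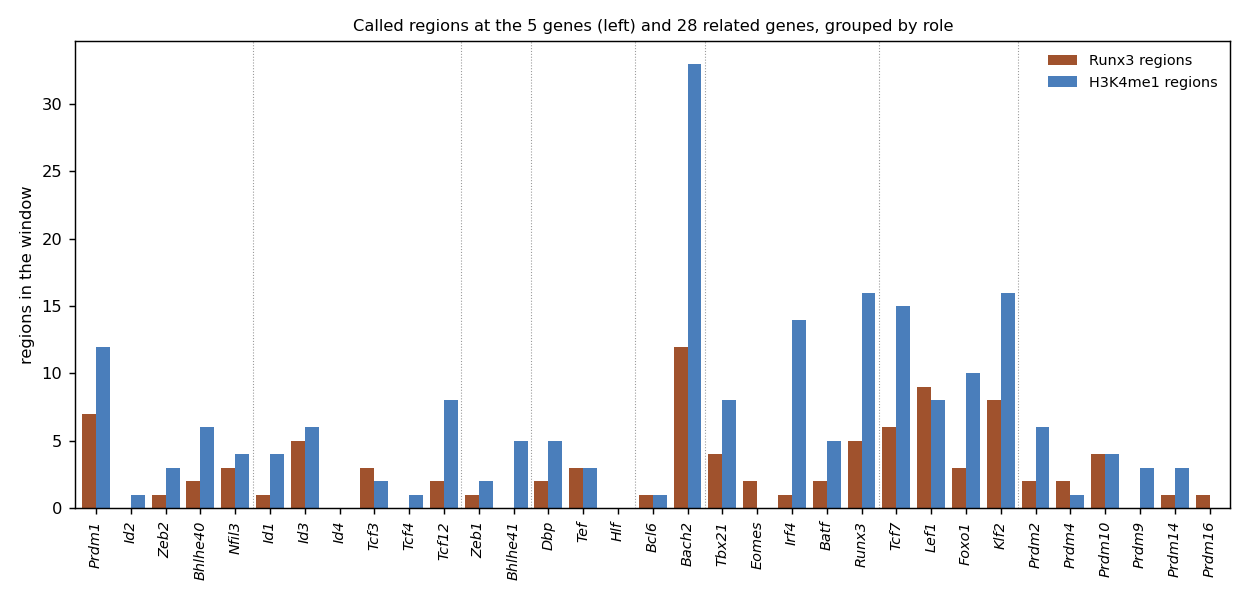
Paired bars give the number of Runx3-bound (brown) and H3K4me1-marked (blue) regions in the gene body and 50 kb per side for the 5 genes at the left and 28 related genes, with dotted lines between groups of related roles. Counts are not divided by window length, and Bach2, with the highest bars, also has the longest window shown (447.3 kb).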

How the data were processed

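ChIP-seq reads of the 2 Runx3, 2 NIS and 1 H3K4me1 libraries had been aligned by the authors to mm9 with ELAND, and uniquely aligned reads of repeats had been joined. Peak calling by the authors used MACS with the joined NIS reads as control, after the larger of the compared read sets was scaled down. The deposited values were start and end positions (bp) of the called regions, 1 list per antibody, with 0 score columns. Unique alignment leaves repeated sequence uncalled, and joined calling hides the spread between repeats. Depth was not analysed here.

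Gene bodies were the union of GENCODE vM1 transcripts, and overlap required 1 bp. Coordinates are counted from 1. Motifs were searched in the mm9 genome on both strands. Every protein-coding gene was given the same window. Shares have 95% Wilson intervals for counting error. The 5 genes, the 28 related genes and the motifs were chosen with earlier results of these data known. All 13 Runx3-bound regions are named, as well as marked regions that hold one or are the widest of a window. Sequences were printed for regions within 1 kb of a start and, per gene, for a region with the most RUNX motifs. At Prdm1, regions 4 and 6 tied with 3 matches each, and region 6, the wider, was printed. Gene bodies of protein-coding transcripts alone, the distance classes, motif densities and further marked regions were added after the data were examined. Other alternatives were flank length, overlap, merging, width, motif window and start annotation.

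Python 3.11.15, NumPy 2.4.6, SciPy 1.17.1, matplotlib 3.10.9, pysam 0.24.0 and numba 0.67.0 were used. Overlap, cover, motif and module functions were tested on simulated data, with 0 differences from direct counting in 200 trials each.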

Additional observations from a re-analysis of the deposited data

How the results depend on the processing

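No paired analysis was possible because the reads of repeats had been joined before peak calling, and for the same reason no library could be left out. Of 35 alternatives for 8 values, 26 stayed within 1.5 times (counts) or the 95% Wilson interval (shares) and 9 moved. The 13 Runx3-bound regions became 3 with the gene bodies alone, all at Prdm1, and 6 among regions at least as wide as the list median. The 26 marked regions became 7 and 13 under these settings. Flanks of 25 and 100 kb gave 11 and 15 Runx3-bound regions, and Id2 had 1 with 100 kb. The share of regions with a RUNX motif, 100%, became 76.92% in the central 200 bp and 76.92% with TGTGGT alone. At least 90% of all genes had fewer Runx3-bound regions than 1 of the 5 genes, and than 2 of them per 100 kb or with a flank of 25 kb. At least 90% had less H3K4me1 cover than 2 genes, than 3 with a flank of 25 kb, and fewer marked regions than 1 gene. The share of Runx3-bound regions overlapping H3K4me1 ranged from 81.82% to 86.67%. With protein-coding transcripts alone, an alternative chosen after seeing the data, 11 Runx3-bound and 24 marked regions remained. With 13 regions and no scores, small differences in shares cannot be seen, and read depth, not analysed here, limits what an absent region says. The causes of the moves were not tested.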

Other observations

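RUNX motif matches were also counted per kb over the called regions of Prdm1, Id2, Zeb2, Bhlhe40 and Nfil3. The 13 Runx3-bound regions held 28 matches in 6970 bp, or 4.017 per kb, against 4.276 per kb over all Runx3-bound regions. H3K4me1-marked regions of the 5 genes that held a Runx3-bound region had 2.622 matches per kb, and 2.154 per kb in their part outside it, while those without Runx3 had 1.589. Over the whole lists the marked regions with and without Runx3 had 2.361 and 2.113 per kb. The 3 marked regions within the protein-coding transcripts of Prdm1, all without Runx3, had 0.8623, 0.6653 and 1.058 matches per kb, below the 1.667 of the whole Prdm1 window. The widest marked region of Prdm1 (5260 bp), also without Runx3, had 2.662 per kb, above the 2.372 per kb of the marked region around Prdm1 region 6. These values were computed after the data were examined, were not tested, and base composition differs between the regions.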
